A study of Rattus norvegicus with 12 samples.

Results

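Rat cells of the inner medullary collecting duct (IMCD), in primary culture, were compared after they had spent the last 48 h of culture at 300 or at 640 mOsm/kg. Arrays were chosen by the time and osmolality in the sample titles, which gave 3 arrays at 300 and 3 at 640, 6 of the 12 arrays of the series. The other 6 hold both osmolalities at 24 h. All cells came from kidneys of male Sprague-Dawley (SD) rats of 7 weeks and had first been grown at 640 mOsm/kg for 4 days, so the group at 640 stayed at its starting osmolality and the group at 300 was stepped down. At harvest both groups had been 6 days in culture. No sample was taken at the moment of the step, and a rise or fall below is always the level at 300 relative to that at 640 at the same time. The sources used here do not state whether replicates are different rats or dishes, and p-values may therefore reflect technical spread only. A short code in each description names another osmolality for the 640 group at 48 h than its titles and treatment labels, which were followed.

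The collecting duct of the inner medulla is bathed in interstitial fluid that is far more concentrated than plasma. Vasopressin acts there through the receptor Avpr2 and cyclic AMP to place the water channel Aqp2 in the apical membrane, and the urea transporter Slc14a2 lets urea enter the medulla. Medullary cells balance the salt outside by storing organic osmolytes such as sorbitol, myo-inositol, taurine and betaine, whose transporters and enzymes are induced by the transcription factor Nfat5 (TonEBP). Lowering the osmolality is known to make such cells swell, release osmolytes and lower the expression of these genes.

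Expression is given as log2 intensity of a gene's probe set, with each array centred on its median. The median over the 14506 genes tested lay between 6.81 and 6.97 on the 6 arrays before centring. On the 6 arrays at 24 h, which enter the same fit, it lay between 6.89 and 7.58, and both groups there held that spread. Of 17 collecting duct markers, the mean log2 level was 9.74 to 9.91 on the arrays at 640 and 9.01 to 9.25 at 300. This mean is weighted by the large log2 changes of the 4 called markers, Aqp2 (-4.41), Slc14a2 (-2.54), Aqp3 (-2.19) and Avpr2 (-1.50). The epithelial adhesion gene Epcam stood at 12.48 ± 0.23 at 640 and 12.54 ± 0.22 at 300 (SD, n = 3), and the kidney cadherin Cdh16 at 12.73 ± 0.07 and 12.28 ± 0.15. Neither was called. Of the 17 markers, 13 stood above the median gene at 640 and also at 300. The sodium channel subunits Scnn1a, Scnn1b and Scnn1g and the enzyme Hsd11b2 stood below it, at percentiles 38, 30, 36 and 42 at 640. The levels of Epcam and Cdh16, which were picked after they were seen, did not go against the label of a renal epithelium. Since no detection calls were used, a gene at a low level cannot be called absent.

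A total of 269 of the 14506 genes differed between 300 and 640 at 48 h (1.85%, limma, Benjamini-Hochberg adjusted p under 0.05), of which 76 rose (0.524%) and 193 fell (1.33%). The change was at least 2-fold for 33 of the rises and 120 of the falls, and at least 4-fold for 4 rises and 23 falls. For all 269 the 3 arrays at 300 and the 3 at 640 did not overlap, which held for 14.8% of all genes (7.83% higher and 7.02% lower at 300). The falls were also the larger changes. The greatest was 53.3-fold, for Ly6al, and the greatest rise was 4.99-fold, for Capn6. Without 1 array the count of calls fell, to 158 without 640 replicate 1, to 178, 165 and 163 without 300 replicates 1, 2 and 3, and to 194 and 190 without 640 replicates 2 and 3. On the values as deposited, with no centring, it was 104 (25 rises, 79 falls), all of them among the 269. Of 94 called genes named by the rule for named genes, 51 were called in each of these 7 settings. Called genes of that rule described below belong to those 51 unless a lost call is stated. With cyclic loess, quantile normalization, centring on all probe sets, the 48 h arrays alone or the same-number block, calls were also lost in 1 or more of these settings for Ehf, Rhbg, Slc38a4, Hsph1, Cyp2s1, Rsad2, Pola2, Tyms, Cnn1, Fbln1, Ppargc1a, Pparg, Hk1, Hif1a, Edn1, Emcn and Csf1r.

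The arrays at 48 h resembled each other in 3 sets that cross the replicate numbers, 640 replicate 1 with 300 replicate 3, replicate 2 with replicate 2, and 640 replicate 3 with 300 replicate 1. Deviations from the group means correlated within these crossed sets with Pearson's r = 0.631, 0.795 and 0.78 over the 14506 genes, which are not independent replicates. Between arrays 1 and 1 and between 3 and 3, which share a number, r was -0.231 and -0.222. The same sets had r = 0.576, 0.844 and 0.825 among the arrays at 24 h. Fitted as a block at 48 h, the crossed sets gave 321 calls (2.21%, limma), 98 rises (0.676%) and 223 falls (1.54%), with 263 of the 269 among them. The count for a block at both times was 2407 (16.6%), made of 1175 rises (8.1%) and 1232 falls (8.49%), and it included the 269. Rises were 28.3% of calls without the block and 48.8% with it. In that fit the median standard error of a log2 change dropped from 0.202 to 0.0872. The sets were recognised by their likeness in these same values, so the blocked p-values are not independent of the choice of sets. For most gene lists below, the count from the block at both times ("the block") is given after the unblocked one, for comparison with 8.1% rises and 8.49% falls over all genes in that fit. At an unadjusted p under 0.05 in limma without the block, 1186 of the 14506 genes passed (8.18%), 520 higher (3.58%) and 666 lower at 300 (4.59%). In direction alone, 7919 of the 14506 genes were higher at 300 at 48 h and 6587 were lower.

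Among the genes of water and urea transport the fall of the water channel Aqp2 was the largest. Of 24 measured genes of water and urea transport and vasopressin signalling, 5 fell (Aqp2, Aqp3, Slc14a2, Avpr2 and Sgk1), 0 rose, 19 were lower at 300, and the median log2 change was -0.36 against 0.02 over all genes. In the fit with the crossed block at both times 13 fell and 1 rose. Aqp2 had log2 levels of 11.87, 11.63 and 11.66 on replicates 1, 2 and 3 at 640 and of 7.54, 6.72 and 7.66 at 300. Every array at 300 lay below every array at 640, with 300 replicate 2 the lowest. The fall was 21.2-fold (log2 change -4.41 ± 0.33 SE, limma adjusted p = 2.88e-06). In bulk RNA, fewer principal cells and less Aqp2 per cell cannot be told apart, and this holds for each gene below.

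Aqp3, the basolateral exit for water, was at 10.37, 9.51 and 9.74 at 640 and at 7.54, 7.45 and 8.07 at 300, a 4.55-fold fall (log2 change -2.19 ± 0.26 SE, limma adjusted p = 0.000179). Slc14a2 was at 10.23, 10.42 and 10.05 at 640 and at 7.46, 7.85 and 7.77 at 300, a 5.81-fold fall (-2.54 ± 0.32, adjusted p = 0.000279). For both genes all arrays at 300 lay below all arrays at 640. The receptor Avpr2 fell 2.83-fold (-1.5 ± 0.23, adjusted p = 0.0017), from 8.89 ± 0.07 to 7.40 ± 0.27 (SD, n = 3). The kinase Sgk1, which is induced by aldosterone and by hypertonicity, fell 1.83-fold (-0.87 ± 0.17, adjusted p = 0.0104), a call lost on the deposited values and without 640 replicate 1 or 300 replicate 2. The water channel Aqp4 was at 8.93 ± 0.07 and 8.64 ± 0.19 and was not called (log2 change -0.28, limma adjusted p = 0.999).

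Among 18 transcription factors of collecting duct identity, 1 fell and 0 rose, and 13 were lower at 300 (median log2 change -0.25). The epithelial factor Ehf had the call, at -0.79 ± 0.19 (limma adjusted p = 0.0411), and it was lost without any 1 of the 6 arrays and on the deposited values. Its relative Elf5, a principal cell factor, had a larger value of -1.53 that did not pass (limma adjusted p = 0.165). The crossed block at both times gave 7 falls and 2 rises among the 18. Sodium handling showed 2 falls among 10 sodium pump and FXYD genes (4 falls with the block). Fxyd2, the gamma subunit that modulates the pump, was at 10.68, 10.42 and 9.55 at 640 and at 7.58, 7.78 and 8.39 at 300. The groups did not overlap although 640 replicate 3 and 300 replicate 3 lay closer to each other than the rest. The fall was 4.92-fold (-2.30 ± 0.30 SE, limma adjusted p = 0.000403). Atp1b1, the beta subunit of the pump, fell 2.01-fold, with the call lost on the deposited values and without 640 replicate 3 or 300 replicate 2. The epithelial sodium channel subunits Scnn1a, Scnn1b and Scnn1g had log2 changes of -0.07, 0.13 and 0.13 and were not called. Their mean levels at 640 were low, at 5.91, 5.29 and 5.70 (percentiles 38, 30 and 36 of all genes). Since no detection calls were used, an unchanged sodium channel cannot be read from these values.

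Calls among organic osmolyte genes were all falls. Of 16 measured genes of osmolyte uptake, synthesis and breakdown, 4 fell, 0 rose and 11 were lower at 300, with a median log2 change of -0.21. The block at both times gave 7 falls and 0 rises. Slc5a3, the sodium cotransporter for myo-inositol, was at 10.04, 9.93 and 10.33 at 640 and at 8.09, 7.08 and 7.49 at 300, and the groups did not overlap. It fell 5.84-fold (log2 change -2.55 ± 0.43 SE, limma adjusted p = 0.00383). The mean level within each crossed set of arrays moved alike, by -0.49, -0.53 and -0.47 over the 16 genes.

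Akr1b1, the aldose reductase that makes sorbitol from glucose, was at 13.59, 13.37 and 13.45 at 640 and at 12.23, 11.84 and 12.33 at 300. Its 2.53-fold fall (-1.34 ± 0.25, limma adjusted p = 0.00957) was not called without 640 replicate 1 or 300 replicate 2. The taurine transporter Slc6a6 fell 2.09-fold (-1.06 ± 0.22, limma adjusted p = 0.0202), with the call lost on the deposited values and without 4 of the 6 arrays (640 replicates 1 and 3, 300 replicates 2 and 3). Cdo1, the cysteine dioxygenase that starts taurine synthesis, fell 2.38-fold (-1.25 ± 0.20, limma adjusted p = 0.00222). The taurine synthesis genes Csad and Ado had log2 changes of 0.01 and -0.07 and were not called (limma adjusted p = 0.999 for both). Among these taurine genes only Slc6a6 and Cdo1 had calls. Nfat5 itself was at 10.01, 9.78 and 10.14 at 640 and at 9.93, 9.48 and 9.88 at 300, groups that overlap, and its change of -0.21 ± 0.20 SE was not called (limma adjusted p = 0.999).

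Heat shock chaperones, which protect proteins in concentrated cytosol, had 3 falls and 0 rises among 21 measured (5 and 0 with the block), while the median of the list stayed at 0.02, as over all genes. Hspa4l, an osmotically induced relative of Hsp110, was at 8.97, 9.37 and 9.62 at 640 and at 8.09, 8.0 and 7.76 at 300. It fell 2.59-fold with no overlap (-1.37 ± 0.19 SE, limma adjusted p = 0.000847). Hspa2, an Hsp70, fell 2.56-fold (-1.36 ± 0.19, adjusted p = 0.000895). Hsph1 (Hsp110) fell 1.90-fold (-0.92 ± 0.22, adjusted p = 0.0413), a call lost without any 1 array, on the deposited values, with quantile normalization and with the crossed block at 48 h. All 3 belong to the Hsp70 and Hsp110 families.

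**Figure D1:**
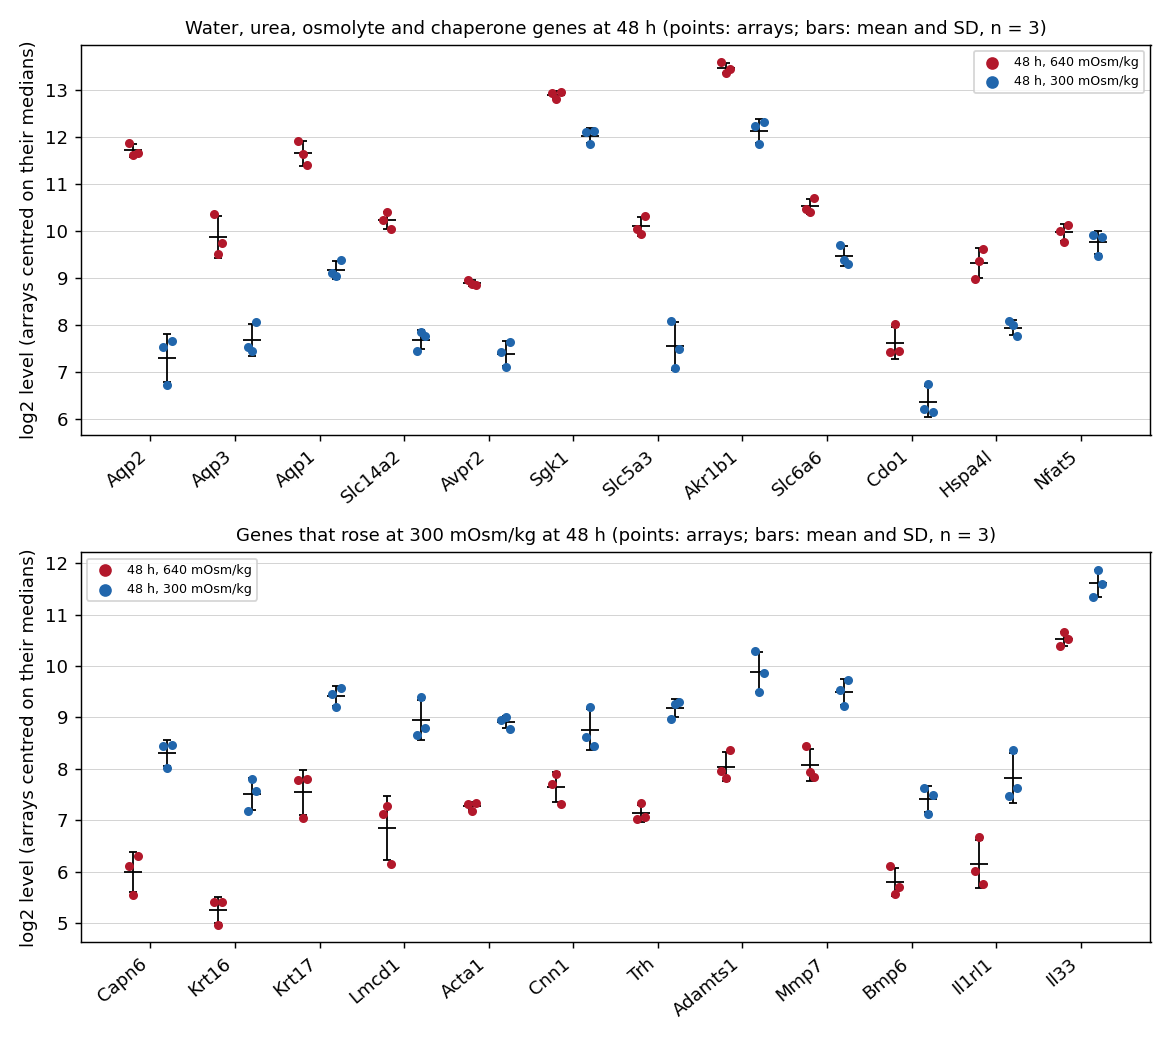
The plots show log2 levels on each of the 6 arrays at 48 h (points, red at 640 and blue at 300 mOsm/kg) with the mean and SD of 3 arrays, for water, urea, osmolyte and chaperone genes (top) and genes that rose (bottom). Aqp2 lay at 11.63 to 11.87 at 640 and at 6.72 to 7.66 at 300, whereas the points of Nfat5 overlapped.

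Surface proteins and mucins held the largest fall. Of 21 genes of the Ly6 superfamily, membrane mucins and mucin glycosyltransferases, 6 fell, 0 rose, and the median log2 change was -0.41. With the crossed block at both times 12 fell and 2 rose. Ly6al, a member of the Ly6 family of small lipid-anchored proteins, was at 11.01, 11.88 and 10.52 at 640 and at 5.04, 5.93 and 5.23 at 300. The lowest array at 640 and the highest at 300 were far apart, and its log2 change was -5.73 ± 0.41 SE (limma adjusted p = 1.76e-06). Lypd2 fell 9.61-fold (-3.26 ± 0.31, adjusted p = 3.02e-05) and Ly6i 6.03-fold (-2.59 ± 0.42, adjusted p = 0.00267). Ly6 genes lie close together and resemble each other in sequence, so probe signal may be shared among them.

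The membrane mucin Muc1 was at 11.49, 11.62 and 11.39 at 640 and at 9.24, 9.04 and 9.26 at 300. The spread within each group was small beside the gap, and the fall was 4.99-fold (-2.32 ± 0.16 SE, limma adjusted p = 1.76e-06). Gcnt3, which builds branches on mucin sugar chains, fell 3.88-fold (-1.96 ± 0.20, adjusted p = 4.84e-05). Muc20 fell 2.47-fold, a call lost on the deposited values and without 4 of the 6 arrays (640 replicates 1 and 2, 300 replicates 1 and 3). Of 27 claudin and junction genes limma called 0, with a median of -0.07, and at an unadjusted p under 0.05 4 were lower and 1 was higher, against 4.59% and 3.58% of all genes. The block at both times called 6 falls and 2 rises among them.

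Among 39 secreted proteases and inhibitors, 4 rose and 4 fell (12 and 7 with the block), and 28 were higher at 300. Mmp13, a collagenase, was at 8.22, 8.83 and 8.76 at 640 and at 5.68, 4.87 and 4.63 at 300, an 11.6-fold fall (log2 change -3.54 ± 0.27 SE, limma adjusted p = 3.57e-06). Serpina3n, an inhibitor of serine proteases, was at 11.31, 11.36 and 11.31 at 640 and at 8.58, 7.94 and 8.37 at 300, an 8.18-fold fall (-3.03 ± 0.22, adjusted p = 1.76e-06). Neither gene's groups overlapped. Prss35, a serine protease-like protein, fell 6.96-fold, and Timp3, an inhibitor of metalloproteases, had a log2 change of -0.90 (limma adjusted p = 0.0450, and 0.369 on the deposited values). Metalloproteases also supplied 3 of the rises. Adamts1, which cleaves matrix proteoglycans, was at 7.96, 7.82 and 8.36 at 640 and at 10.28, 9.5 and 9.87 at 300, and it rose 3.57-fold (1.84 ± 0.26 SE, limma adjusted p = 0.000872). Mmp7 (matrilysin) rose 2.67-fold, a call lost without 300 replicate 3, and Mmp15, a membrane-bound metalloprotease, had 0.64 (limma adjusted p = 0.0457, and 0.447 on the deposited values). Wfdc2, a secreted protein of the whey acidic protein family, rose 2.15-fold, a call lost on the deposited values and without 640 replicate 3 or 300 replicates 2 or 3.

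Among transporters of ions and acid, Slc4a11, a relative of the bicarbonate transporters, was at 10.35, 10.70 and 10.29 at 640 and at 7.19, 7.60 and 7.29 at 300. It fell 8.49-fold (log2 change -3.08 ± 0.22 SE, limma adjusted p = 1.76e-06), the only call among 26 genes of cell volume regulation and ion transport (5 falls and 2 rises with the block). The sodium, potassium and chloride cotransporter Slc12a2 had -0.85 and did not pass (limma adjusted p = 0.0608). Of 18 acid and base transport genes of intercalated cells (3 falls with the block), the carbonic anhydrase Car12 fell 1.88-fold and the ammonia channel Rhbg 2.05-fold, Car12 with the call lost on the deposited values and Rhbg without 5 of the 6 arrays (all but 640 replicate 2). Aqp1, the water channel of thin limbs, was at 11.93, 11.64 and 11.40 at 640 and at 9.11, 9.04 and 9.39 at 300, a 5.57-fold fall (-2.48 ± 0.26 SE, limma adjusted p = 6.61e-05). Slc16a6, of the monocarboxylate transporter family, rose 1.63-fold and was the only call among 17 sugar and monocarboxylate transporters (2 rises with the block), lost on the deposited values and without 5 of the 6 arrays (all but 640 replicate 2).

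Falls were also called for some peptide and lipid mediators that act on the tubule. Guca2a (guanylin), a peptide that activates guanylate cyclase and promotes salt excretion, was at 7.78, 8.09 and 7.40 at 640 and at 5.91, 5.62 and 6.01 at 300, a 3.76-fold fall with no overlap (log2 change -1.91 ± 0.21 SE, limma adjusted p = 7.25e-05). Guca2b (uroguanylin) fell 2.24-fold and the guanylate cyclase Gucy2g 2.34-fold. These 3 were the calls among 13 guanylin and guanylate cyclase genes (4 falls with the block), of which 7 were higher and whose median was 0.02. Of 29 prostaglandin and lipoxygenase genes 3 fell and 0 rose, and 9 fell and 1 rose with the crossed block at both times. Alox15b, a lipoxygenase, fell 5.67-fold (-2.50 ± 0.24, limma adjusted p = 2.63e-05). Abcc4, which exports prostaglandins and cyclic nucleotides, fell 3.25-fold (-1.70 ± 0.18, adjusted p = 7.11e-05), and the cyclooxygenase Ptgs1 fell 2.44-fold, a call lost without 300 replicate 2. The inducible cyclooxygenase Ptgs2 had -0.72 and did not pass (limma adjusted p = 0.106). Cyp27b1, which activates vitamin D, fell 2.96-fold (-1.57 ± 0.19, limma adjusted p = 0.000264).

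Of 58 measured genes of growth factor pathways 2 rose and 3 fell (9 and 14 with the block). Bmp6, a ligand of the bone morphogenetic protein family, was at 6.12, 5.58 and 5.71 at 640 and at 7.63, 7.13 and 7.49 at 300, a 3.07-fold rise (log2 change 1.62 ± 0.18 SE, limma adjusted p = 8.33e-05). Its extracellular antagonist follistatin (Fst) fell 1.95-fold (-0.96 ± 0.17, adjusted p = 0.00665), a call lost on the deposited values. Igfbp5, which binds insulin-like growth factors, fell 4.31-fold (-2.11 ± 0.22, adjusted p = 6.61e-05), and the co-receptor Tgfbr3 fell 2.56-fold (-1.36 ± 0.16, adjusted p = 0.000199). Endothelin (Edn1), which inhibits sodium and water uptake in the collecting duct, was at 8.94, 9.29 and 9.11 at 640 and at 9.99, 10.21 and 9.92 at 300. It rose 1.90-fold, a call lost on the deposited values and without 4 of the 6 arrays (640 replicates 1 and 3, 300 replicates 1 and 2).

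Rises were spread over keratins, contractile proteins, matrix and cytokine genes. Capn6, a calpain that lacks protease activity and binds microtubules, was at 6.12, 5.56 and 6.31 at 640 and at 8.45, 8.02 and 8.47 at 300. It was the only call among 14 calpain genes, to which the block added 1 fall (log2 change 2.32 ± 0.22 SE, limma adjusted p = 2.63e-05). Krt16, a keratin of stressed epithelia, was at 5.41, 4.98 and 5.41 at 640 and at 7.18, 7.80 and 7.57 at 300, a 4.76-fold rise (2.25 ± 0.32, adjusted p = 0.000952). Its neighbour in the keratin cluster, Krt17, rose 3.65-fold (1.87 ± 0.26, adjusted p = 0.000803). Krt23 fell 2.47-fold, a call lost on the deposited values, so the 14 keratins had 2 rises and 1 fall (5 and 2 with the block). The simple epithelial keratins Krt8 and Krt18 had 0.41 and 0.42 and were not called (limma adjusted p = 0.799 and 0.761). Trh, the precursor of thyrotropin-releasing hormone, rose 4.11-fold (2.04 ± 0.19, adjusted p = 2.63e-05). Prl8a9, of the prolactin family, rose 3.9-fold (1.97 ± 0.24, limma adjusted p = 0.000268), the leucine-rich repeat protein Lrrn1 rose 3.58-fold (1.84 ± 0.23, adjusted p = 0.000264), and the nucleosome-binding protein Hmgn2 rose 3.09-fold (1.63 ± 0.17, adjusted p = 7.11e-05).

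Of 37 contractile actin genes and targets of the transcription factors SRF and YAP, 4 rose and 0 fell, 28 were higher at 300, and the median log2 change was 0.23. With the crossed block at both times 17 rose and 2 fell. SRF binds a short AT-rich element, the CArG box, in front of many muscle actin genes. The sequence before the start of Acta1 (250 bases, chr19:68784195-68784444, minus strand, GRCr8, RefSeq) is shown because it holds a match to that element, in capitals, 94 to 85 bases before the start.
Acta1: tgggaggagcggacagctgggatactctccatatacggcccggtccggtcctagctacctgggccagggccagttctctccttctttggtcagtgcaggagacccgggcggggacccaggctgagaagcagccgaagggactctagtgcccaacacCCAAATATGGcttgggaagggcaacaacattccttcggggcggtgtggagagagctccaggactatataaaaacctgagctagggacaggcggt
A CArG box match on either strand occurred in 548 of 33465 RefSeq promoter windows (1.64%), and in 1 of the 3 called members with a window, the other windows being those of Cnn1 and Lmcd1. A match is a description of the letters and does not show binding. Members of the list that were not called were not counted.

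Acta1, the actin of skeletal muscle, was at 7.31, 7.19 and 7.34 at 640 and at 8.95, 9.00 and 8.78 at 300, a 3.09-fold rise (log2 change 1.63 ± 0.15 SE, limma adjusted p = 2.63e-05). Lmcd1, a LIM protein of striated and smooth muscle, was at 7.13, 7.28 and 6.15 at 640 and at 8.66, 9.39 and 8.79 at 300, a 4.28-fold rise (2.10 ± 0.34, adjusted p = 0.00267). For both genes all arrays at 300 lay above all arrays at 640. Tissue factor (F3) rose 1.87-fold and the calponin Cnn1 2.17-fold, both lost on the deposited values, F3 also without 640 replicate 1 or 300 replicates 1 or 3, and Cnn1 also without 4 of the 6 arrays (640 replicates 1 and 3, 300 replicates 1 and 2). The smooth muscle genes Acta2 and Tagln had 0.46 and 0.64 and were not called (limma adjusted p = 0.446 and 0.191). Tnnc1, a troponin outside this list, rose 2.69-fold (1.43 ± 0.19, limma adjusted p = 0.000629).

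Matrix genes showed 4 rises and 1 fall among 31 (9 and 5 with the block). Fbln2, a fibulin of basement membranes and elastic fibres, was at 7.27, 6.96 and 7.64 at 640 and at 9.18, 8.40 and 8.77 at 300, a 2.82-fold rise (log2 change 1.5 ± 0.25 SE, limma adjusted p = 0.00423). Postn (periostin) rose 2.33-fold (1.22 ± 0.17, adjusted p = 0.000847). Col12a1 and Fbln1 rose 1.86-fold and 1.80-fold, with both calls lost on the deposited values, Col12a1 also without 640 replicate 1 or 300 replicates 1 or 2, and Fbln1 without any 1 array. The integrin subunit Itgb3, a receptor for matrix proteins, rose 2.28-fold (1.19 ± 0.20, adjusted p = 0.00445). S100a4, a calcium-binding protein of motile cells, was at 11.52, 10.97 and 10.80 at 640 and at 8.70, 8.52 and 8.94 at 300, a 5.20-fold fall (-2.38 ± 0.29, adjusted p = 0.000258). The fibrillar collagens Col1a1 and Col1a2 were not among the calls.

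Immune signalling genes split between falls of interferon-induced genes and rises around the alarmin Il33. Il33, released by damaged epithelia, was at 10.39, 10.66 and 10.52 at 640 and at 11.35, 11.86 and 11.60 at 300, a 2.11-fold rise (log2 change 1.08 ± 0.17 SE, limma adjusted p = 0.00275). Its receptor Il1rl1 was at 6.02, 6.68 and 5.77 at 640 and at 7.47, 8.38 and 7.63 at 300, a 3.19-fold rise (1.67 ± 0.29, adjusted p = 0.00445). Neither pair of groups overlapped, and both calls were lost on the deposited values. The complement component C3 rose 1.76-fold, a call lost on the deposited values and without 4 of the 6 arrays (640 replicates 1 and 2, 300 replicates 1 and 3). The chemokine Cxcl10 fell, and these were the 4 calls among 43 chemokine, cytokine and NF-kB target genes (9 rises and 5 falls with the block).

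**Figure D2:**
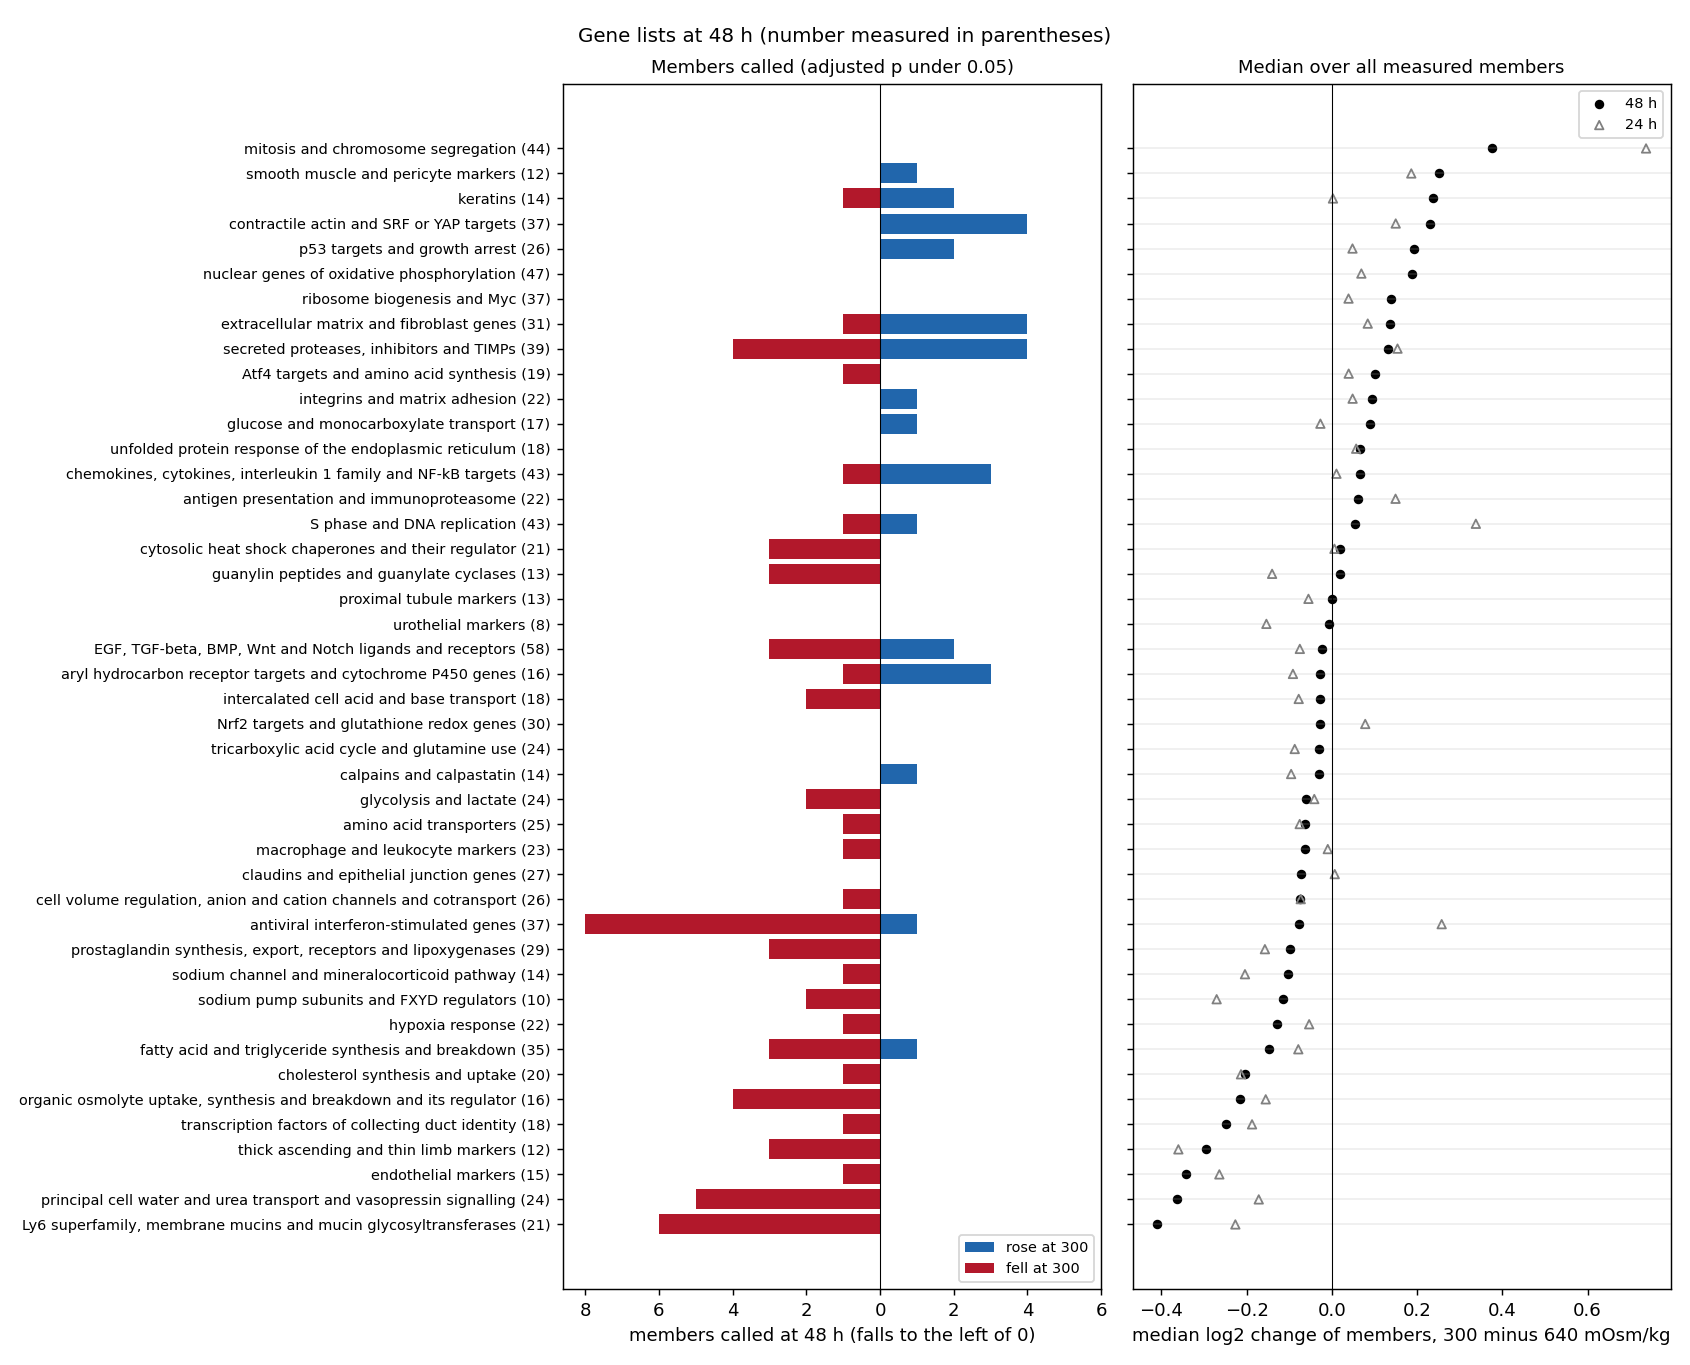
The plot shows, for each of the gene lists (number measured in parentheses), how many members were called at 48 h (left, falls in red and rises in blue) and the median log2 change over all measured members (right, filled circles for 48 h and open triangles for 24 h). The median of the mitosis list was 0.38 at 48 h and 0.74 at 24 h, and that of the interferon list was -0.08 and 0.26.

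The 4 genes whose change differed between the times without a block were 3 antiviral interferon-stimulated genes and the chemokine Cxcl10. Interferons bind receptors that activate STAT and IRF factors, which act on the interferon-stimulated response element (ISRE) in front of genes such as Mx1, Ifit3 and Oas1a. Searched on both strands as GAAA, 2 bases of any kind and GAAA again, the ISRE core was found in 1312 of 33465 RefSeq promoter windows (3.92%), each 250 bases before to 50 after a gene's start. Of the 10 called genes of this kind (9 of the interferon list and Cxcl10), 9 had a window and 7 of these held a match, namely Cxcl10, Gbp2, Ifit3, Irf7, Oas1a, Oas1b and Rsad2. Windows of Mx1 and Oasl held none, and Ifit1 had no window. In Oas1a and Oas1b 2 overlapping matches were found. The bases before the start of Ifit3 (chr1:241527076-241527325) and Cxcl10 (chr14:15988816-15989065), both on the plus strand of GRCr8, are printed with the match in capitals because both genes differed between the times.
Ifit3: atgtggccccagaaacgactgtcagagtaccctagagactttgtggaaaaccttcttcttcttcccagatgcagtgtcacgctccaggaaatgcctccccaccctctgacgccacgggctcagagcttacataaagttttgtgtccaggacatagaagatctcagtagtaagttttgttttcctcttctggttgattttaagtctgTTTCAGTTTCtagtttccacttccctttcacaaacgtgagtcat
Cxcl10: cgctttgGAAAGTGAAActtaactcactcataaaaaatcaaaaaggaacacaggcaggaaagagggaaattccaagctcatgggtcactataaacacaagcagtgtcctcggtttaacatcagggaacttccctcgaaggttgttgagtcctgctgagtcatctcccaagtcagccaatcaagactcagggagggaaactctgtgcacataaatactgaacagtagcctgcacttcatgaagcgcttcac
In Ifit3 the match lies on the opposite strand, 44 to 35 bases before the start, and in Cxcl10 it lies 243 to 234 bases before it. Such matches describe the letters in these windows only. The list was chosen as interferon-stimulated and its members not called were not counted, so the share cannot set the called genes apart from them.

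Of 37 measured interferon-stimulated genes, 8 fell at 48 h and 1 rose (11 and 5 with the block at both times). Mx1, a GTPase that blocks virus replication, was at 10.32, 10.01 and 10.15 at 640 and at 5.87, 6.18 and 6.35 at 300. No array at 300 came near those at 640, and the fall was 16.3-fold (log2 change -4.03 ± 0.28 SE, limma adjusted p = 1.76e-06). Ifit3, which binds foreign RNA with its partners, was at 7.20, 7.52 and 7.52 at 640 and at 5.55, 5.89 and 6.08 at 300, a 2.98-fold fall (-1.58 ± 0.22, adjusted p = 0.000769). Its partner Ifit1 fell 3.82-fold (-1.94 ± 0.26, adjusted p = 0.000532). Oas1a, which makes the oligoadenylates that activate RNase L, fell 2.37-fold (-1.24 ± 0.18, adjusted p = 0.00101), a call lost on the deposited values. Oas1b fell 1.92-fold and Rsad2 (viperin) 2.12-fold, both lost on the deposited values, Oas1b also without 640 replicates 1 or 3 or 300 replicates 1 or 2, and Rsad2 without 5 of the 6 arrays (all but 640 replicate 2). Oasl and Irf7 had -1.03 and -0.88 (limma adjusted p = 0.0353 and 0.0304), and neither was called on the deposited values. Oas1a and Oas1b are genes of the same family, so part of their probe signal may be shared. Their sequences were not compared. The rise was that of the guanylate-binding protein Gbp2 (0.95, limma adjusted p = 0.0343, and 0.358 on the deposited values).

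Cxcl10, a chemokine that interferons induce, was at 8.11, 8.76 and 7.69 at 640 and at 5.15, 5.88 and 5.55 at 300, a 6.33-fold fall (log2 change -2.66 ± 0.27 SE, limma adjusted p = 4.69e-05). At 24 h its arrays overlapped, with 6.54, 6.88 and 6.27 at 640 and 6.34, 6.85 and 6.29 at 300. Mx1 at 24 h was at 9.38, 7.97 and 8.64 at 640 and at 7.69, 7.79 and 8.30 at 300, which overlap too, and Ifit3 was at 7.00, 6.12 and 6.35 at 640 and at 7.22, 7.38 and 7.29 at 300, higher at 300 on every array. The change at 48 h minus that at 24 h was called for 4 of 14506 genes (0.0276%, limma), all downward. These were Mx1 (-3.29 ± 0.40 SE, limma adjusted p = 0.00995), Ifit3 (-2.38 ± 0.31, adjusted p = 0.0101), Cxcl10 (-2.59 ± 0.38, adjusted p = 0.0333) and Oas1a (-1.66 ± 0.25, adjusted p = 0.0354). On the deposited values 0 genes were called for it, with limma adjusted p = 0.0825 for Mx1, and the number was 131 at an unadjusted p under 0.05 in the fit on centred arrays. It was 2 without 640 replicate 1 and without 300 replicate 1 or 3, with Mx1 and Ifit3 in each of these. With the crossed block at 48 h only Cxcl10 was called, and with the block at both times 14 genes were, among them all 4. Of those 14 differences 9 were downward and 5 upward, and 4 belong to the interferon list (Mx1, Ifit3, Oas1a and Rsad2). The upward ones included Acta1, Adamts1, Capn6 and Il1rl1.

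At 24 h, 29 of the 37 interferon-stimulated genes were higher at 300, and at 48 h 26 were lower. Over all 14506 genes, 5936 were higher at 24 h and 6587 were lower at 48 h. The median of the change at 48 h minus that at 24 h was -0.29 for the list and 0.04 over all genes. The group means show that the level at 640 was also higher at 48 h than at 24 h for Ifit3, 7.41 ± 0.19 against 6.49 ± 0.46 (SD, n = 3), while the level at 300 was 5.84 ± 0.27 against 7.29 ± 0.08. Of the 269 genes called at 48 h, 262 had a change of the same sign at 24 h. The 7 that did not were Ifit1, Ifit3, Irf7, Oas1a, Oas1b, Oasl and Rsad2, all of the interferon list. No mark of infection or added interferon is given in the labels, and what set these levels was not tested.

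**Figure D3:**
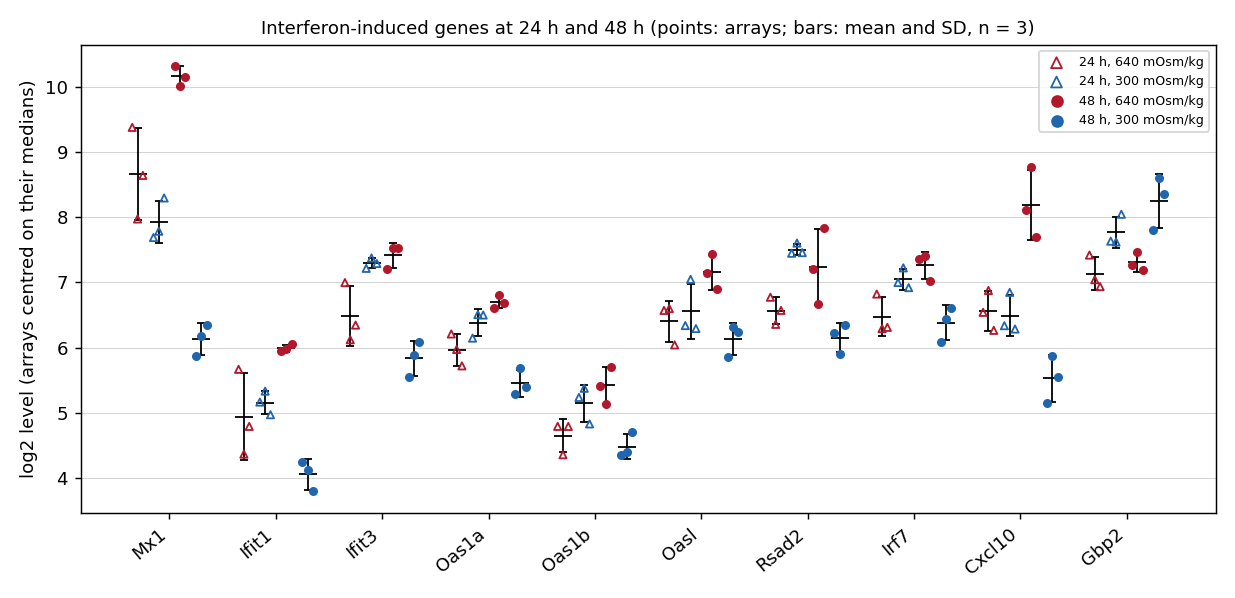
The plot shows log2 levels of interferon-induced genes on all 12 arrays (triangles for 24 h, circles for 48 h, red for 640 and blue for 300 mOsm/kg) with the mean and SD of 3 arrays. Mx1 stood at 10.01 to 10.32 at 640 and at 5.87 to 6.35 at 300 after 48 h, and its arrays overlapped after 24 h.

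Apart from the 7 interferon genes above, all genes called at 48 h had a change of the same sign at 24 h. The same count over all 14506 genes was not made. At 24 h 95 genes were called (0.655%, limma on the same centred arrays), 74 of them also at 48 h. The groups at the 2 times share no arrays, but their calls share an estimate of the spread from all 12 arrays. Calls at both times are therefore not independent. The median size of the log2 change of the 269 genes was 1.07 at 48 h and 0.70 at 24 h, and 254 had the larger size at 48 h, which is favoured by their having been chosen on the 48 h values. Prss35 had -2.80 at both times and Serpina3n had -3.03 and -2.94. Acta1 had 1.63 at 48 h and 0.42 at 24 h, and Slc4a11 had -3.08 and -1.54. For neither of the last pair was the difference between times called (limma adjusted p = 0.0963 and 0.26), although both were called for it with the crossed block at both times.

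**Figure D4:**
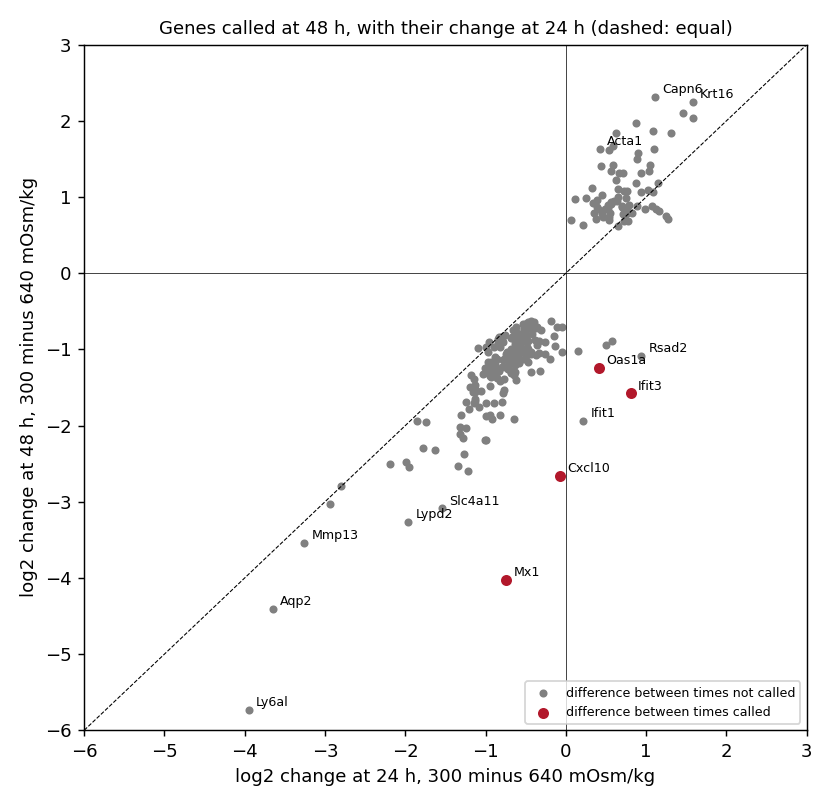
The plot shows the log2 change at 24 h (horizontal) and at 48 h (vertical), 300 minus 640 mOsm/kg, for the 269 genes called at 48 h, with a dashed line where both are equal. The 4 genes called for the difference between times, Mx1, Cxcl10, Ifit3 and Oas1a, lie below the line.

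Cell division genes were higher at 300 without single calls. Of 44 mitosis and chromosome segregation genes 42 were higher at 48 h, with a median log2 change of 0.38. In limma 0 were called, and at an unadjusted p under 0.05 16 were higher and 1 was lower, against 3.58% and 4.59% of all genes. At 24 h the list had 9 rises and a median of 0.74. With the crossed block at both times 20 rose and 1 fell at 48 h. Within the crossed sets the mean level of the list differed by 0.57 (640 replicate 1 with 300 replicate 3), 0.35 and 0.18. Cyclin Ccnb1 had 0.78 and the topoisomerase Top2a 0.56 at 48 h, neither called (limma adjusted p = 0.147 and 0.166). Of 43 S phase genes 1 rose and 1 fell (5 and 3 with the block), both lost on the deposited values and without 5 of the 6 arrays. These were the thymidylate synthase Tyms (1.78-fold higher, kept only without 640 replicate 3) and the polymerase subunit Pola2 (1.83-fold lower, kept only without 300 replicate 2). Among 26 p53 target and growth arrest genes 2 rose (8 with the block, 0 falls), Gadd45g, 1.91-fold (lost without 640 replicate 2 or 300 replicate 3), and the death receptor Fas, 1.82-fold (lost on the deposited values and without 640 replicates 1 or 3 or 300 replicates 2 or 3).

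Nuclear genes of oxidative phosphorylation and of ribosome biogenesis showed the same kind of small shift, with 42 of 47 and 35 of 37 genes higher at 300, medians of 0.19 and 0.14, and 0 called by limma in either list. At an unadjusted p under 0.05 these were 0 of 47 and 2 of 37, against 8.18% of all genes. Over all genes 7919 of 14506 were higher. Under the crossed block at both times 5 rose and 0 fell in each of these lists, beside 8.1% of all genes that rose in that fit. The oxidative phosphorylation list differed within the sets by 0.08, 0.12 and 0.28. Its mean level at 640 was 10.34, 10.40 and 10.01 on replicates 1, 2 and 3 and at 300 was 10.28, 10.52 and 10.42, so the groups overlapped.

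**Figure D5:**
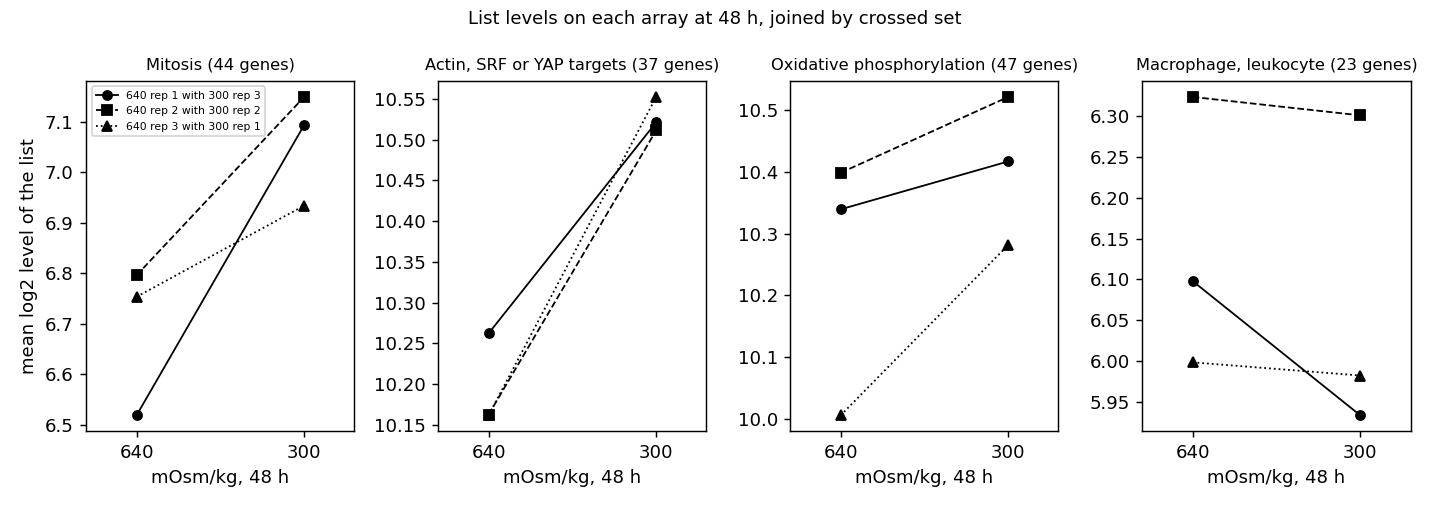
The plots show the mean log2 level of 4 gene lists on each array at 640 and 300 mOsm/kg after 48 h, with lines joining the arrays of a crossed set. All 3 lines rise for the mitosis, the actin, SRF or YAP, and the oxidative phosphorylation list, whereas those of the macrophage and leukocyte list fall by 0.16, 0.02 and 0.02.

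Of 20 cholesterol synthesis and uptake genes 18 were lower, with a median log2 change of -0.20, and 1 fell, the sterol reductase Tm7sf2 (2.19-fold, log2 change -1.13 ± 0.16 SE, limma adjusted p = 0.000769). Under the crossed block at both times 8 fell and 0 rose. Of 35 fatty acid and triglyceride genes 3 fell and 1 rose (12 and 4 with the block). Malic enzyme (Me1), which supplies NADPH for lipid synthesis, fell 2.06-fold (-1.04 ± 0.16, limma adjusted p = 0.0016). The coactivator Ppargc1a fell 1.63-fold, the kinase Pdk4, which inhibits pyruvate dehydrogenase, fell 1.63-fold, and the nuclear receptor Pparg rose 1.71-fold. These 3 calls were lost on the deposited values, that of Pdk4 also with the crossed block at 48 h, those of Pdk4 and Pparg without any 1 array and that of Ppargc1a without any but 300 replicate 3.

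Pfkfb3, which makes the allosteric activator of phosphofructokinase, was at 9.99, 9.66 and 10.02 at 640 and at 8.31, 7.92 and 8.39 at 300, a 3.20-fold fall (log2 change -1.68 ± 0.17 SE, limma adjusted p = 5.74e-05). Hexokinase Hk1 fell 1.56-fold and the hypoxia-inducible factor Hif1a 1.68-fold, both lost on the deposited values, Hk1 without any 1 array and Hif1a without any but 300 replicate 1. The other 22 of 24 glycolysis genes were not called (5 falls and 2 rises in the list with the block). Of 16 aryl hydrocarbon receptor and cytochrome P450 genes 3 rose and 1, Cyp27b1, fell (3 and 2 with the block). The rises were those of the receptor targets Cyp1a1 (1.84-fold), Cyp1b1 (1.68-fold) and Cyp2s1 (1.84-fold). These 3 calls were lost on the deposited values, that of Cyp1a1 also without 300 replicate 3, that of Cyp1b1 without any but 640 replicate 3 and that of Cyp2s1 without any but 300 replicate 2. Nupr1, a stress-induced chromatin protein, fell 2.27-fold (-1.18 ± 0.21, adjusted p = 0.00614), a call lost on the deposited values, and the amino acid transporter Slc38a4 fell 1.83-fold, lost there and without any but 640 replicate 2. In limma 0 genes were called among 30 Nrf2 target and redox genes, 24 genes of the tricarboxylic acid cycle, 22 antigen presentation genes and 18 genes of the unfolded protein response, and at an unadjusted p under 0.05 these were 7, 2, 1 and 0, against 8.18% of all genes. The block at both times gave 4 rises and 5 falls among the redox genes, 1 and 4 in the tricarboxylic acid cycle, 4 and 2 in antigen presentation and 2 and 0 in the unfolded protein response.

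Among markers of other cells that a medullary culture can hold, the limb (thick ascending and thin) and endothelial lists were lower at 300. The smooth muscle list was higher, and the arrays of these lists did not overlap in their mean level. Their median log2 changes were -0.30, -0.34 and 0.25. The 18 intercalated cell markers, with a median of -0.03, were also lower without overlap, at 5.81 to 5.96 at 640 and 5.67 to 5.79 at 300. The junction list, which had 0 calls, did not overlap either, at 9.21 to 9.26 and 9.14 to 9.18. Such a gap in a mean level is therefore not particular to these cells. The mean level of the 12 thick ascending and thin limb markers was 6.80 to 6.92 on the arrays at 640 and 6.16 to 6.26 at 300. Of these, 9 were lower at 300. Calls were falls of Aqp1, of Slc14a2, which also marks thin limbs and stands in the principal cell list, and of the cotransporter Slc12a1. The call of Slc12a1 (2.25-fold) was lost on the deposited values and without 300 replicate 3. The mean level is weighted by the large changes of Aqp1 (-2.48) and Slc14a2 (-2.54), beside the list median of -0.30. The 15 endothelial markers were at 6.90 to 6.98 and 6.56 to 6.68, with 1 fall, of the sialomucin Emcn (2.50-fold, lost on the deposited values and without 4 of the 6 arrays, 640 replicates 2 and 3 and 300 replicates 1 and 3). Smooth muscle and pericyte markers (12 genes) were at 7.96 to 8.11 and 8.27 to 8.40, with 1 rise, of Cnn1. Matrix and fibroblast genes overlapped, at 8.85 to 9.07 and 8.91 to 9.31. Macrophage and leukocyte markers (23 genes) overlapped as well, at 6.00 to 6.32 and 5.93 to 6.30, with 1 fall, of the receptor Csf1r (1.62-fold, lost on the deposited values and without any but 640 replicate 1). Proximal tubule (13 genes) and urothelial markers (8 genes) had 0 calls in limma, and 1 and 0 at an unadjusted p under 0.05. With the block at both times the limb list had 6 falls, the endothelial list 8 falls and 1 rise, the muscle list 4 rises, the macrophage list 4 falls and 2 rises, and the proximal and urothelial lists 1 fall each. The limb and endothelial levels were lower, as were water channel and osmolyte genes, and the muscle level was higher, as were contractile genes. The limb list shares Slc14a2 with the water and urea transport list, and the muscle list shares Cnn1 with the contractile list. Their common direction is therefore partly built in. The part of these cells in the changes of water channel, osmolyte and contractile genes was not tested.

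At the threshold, the last genes called were Dram1 (log2 change -0.63, limma adjusted p = 0.0488), Chdh (-0.96, 0.0495) and Cblc (-0.79, 0.0497), and the first not called were Defb1 (0.72, 0.0504), Mns1 (0.74, 0.0534) and Hspa14 (-0.64, 0.0534).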

How the data were processed

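Total RNA was measured on Affymetrix rat gene arrays, 1 per sample. The authors deposited log2 expression values for 27596 probe sets, made by RMA with Affymetrix Power Tools per the submitters' processing notes (no version is given in the sources used here). Whether the arrays at 24 h and 48 h were normalized together is likewise not given. Of the probe sets 15310 had 1 gene symbol in the platform's gene table, 323 had several and 11963 were not named. The Entrez identifiers of 15279 matched RefSeq. A gene was read from its probe set with the highest mean, which gave 14506 genes (527 with several probe sets, 6 of them called, 0 with an opposite sign). Each array was centred on its median over these genes, because the medians differ between arrays, and the mean of the 12 medians was added back.

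Differences were tested with limma 3.58.1 in R 4.3.3 (lmFit, eBayes) with a mean for each group and all 12 arrays in 1 fit (8 residual degrees of freedom). The contrast was 300 minus 640 at 48 h, and calls had an adjusted p (Benjamini-Hochberg) under 0.05. Gene lists were described by counts of called members and medians, with no set test. Named genes were 10 chosen for their role, the 15 largest rises and falls called at 48 h without overlap of the arrays, up to 6 called members of each of 44 lists, and genes called for the difference between times. Other genes named, Timp3, Mmp15, Oasl, Irf7, Gbp2 and all genes not called except Nfat5 among them, were chosen after their values were seen. The lists, the genes and the alternatives were chosen with earlier results of these data known. The fit was run on simulated data with independent noise for each array. That setting lacks the shared deviations of the crossed sets, so it cannot show how the fit behaves with them. The replicate numbers of the titles paired arrays that resemble each other only for replicate 2. Correlations of deviations within the same number were -0.231, 0.795 and -0.222 at 48 h. The crossed sets were used as an alternative block. Promoter windows came from RefSeq (GRCr8). The number of arrays limits the precision.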

Additional observations from a re-analysis of the deposited data

Results flagged for a closer look

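The effect of osmolality differed between 48 h and 24 h for 4 genes, by limma's test of the change at 48 h minus the change at 24 h (Benjamini-Hochberg adjusted p over 14506 genes). The difference was -3.29 for Mx1 (adjusted p = 0.00995), -2.59 for Cxcl10 (adjusted p = 0.0333), -2.38 for Ifit3 (adjusted p = 0.0101) and -1.66 for Oas1a (adjusted p = 0.0354), in log2 units. At 48 h all 3 arrays at 300 lay below all 3 at 640 for each gene. At 24 h the groups overlapped for Mx1, Cxcl10 and Oas1a, and Ifit3 was higher at 300 on all 3 arrays. Replicate groups of 3 arrays were not searched for single deviating arrays.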

How the results depend on the processing

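The 269 calls at 48 h became 104 on the values as deposited and 499 with array weights. Cyclic loess, quantile normalization, another centring, no dim genes, robust eBayes, probe set means and the 48 h arrays alone kept the count within 1.5 times. Called list members, 93 of 1058, became 50 on the deposited values and 140 with array weights. The 4 calls for the difference between times became 0 on the deposited values, 2 with cyclic loess, quantile normalization or centring on all probe sets, and 10 with array weights. Leaving out 1 array at 48 h gave 158 to 194 calls, 61 to 74 list members and 2 to 4 calls for the difference. Without centring, the log2 change at 48 h was -4.411 for Aqp2 and -4.029 for Mx1, beside -4.409 and -4.027 with it. The standard error of the difference between times went from 0.383 to 0.513 for Cxcl10 and from 0.307 to 0.418 for Ifit3. The 24 h arrays, with medians of 6.89 to 7.58 at 300 and a like spread at 640, entered that fit uncentred. The cause of the shifts in these counts was not tested.

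With the same replicate number as a block, 332 genes were called, 110 list members and 3 for the difference. The crossed replicate block at 48 h gave 321, 103 and 1. Chosen after seeing the data, the crossed block at both times gave 2407, 354 and 14, and on the 48 h arrays alone 2161 genes and 337 list members. No named gene changed direction in any setting. No probe intensities were used here, so signal over background is unknown.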

Other observations

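The genes below were called and stand in no list. Apart from Tuba8 they were picked after their values were seen, so they say nothing of other genes of the same function. In sphingolipid metabolism, the fatty acid hydroxylase Fa2h had a log2 change of -1.91 ± 0.21 SE (limma adjusted p = 7.74e-05), the ceramidase Acer2 -1.57 ± 0.20 (adjusted p = 0.000367), the galactosyltransferase Ugt8 -1.13 ± 0.18 (adjusted p = 0.00229) and the sphingomyelin synthase Sgms2 -1.01 ± 0.16 (adjusted p = 0.00285). Gpcpd1, a phosphodiesterase that splits glycerophosphocholine, rose by 1.06 ± 0.21 (adjusted p = 0.013), and Chdh, which turns choline toward betaine, had -0.96 ± 0.23 (adjusted p = 0.0495).

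Picked in the same way, the doublecortin gene Dcx rose by 1.41 ± 0.20 (limma adjusted p = 0.000803), the tubulin Tuba8 by 1.57 ± 0.22 (adjusted p = 0.000847) and the stathmin Stmn4 by 0.97 ± 0.17 (adjusted p = 0.0065). Lower at 300 were the transporters Abcc5 (-1.24) and Abcg1 (-1.23), the nitric oxide synthase Nos1 (-1.31), the arginase Arg2 (-1.04) and the transcription factors Bcl6 (-1.52), Foxq1 (-0.998), Eya2 (-0.97) and Foxe1 (-0.88), each with a limma adjusted p between 0.000187 and 0.0146. Of the 269 called genes 176 were in no list. In a fit of every probe set, 55 of the 267 called probe sets had no single gene name, 43 lower and 12 higher at 300, with changes from -5.38 to 1.77.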
